A study of Mus musculus with 5 samples.

Results

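The 38 genes described here are leukocyte lineage genes read in 5 bulk RNA-seq libraries of sorted mouse mammary luminal cells. They were taken by name from the deposited expression table. All 38 of 38 were found among its 24319 usable genes. No expression value entered the choice by name, but the genes were picked with earlier results of these data known. For description they were divided by known role into pan-leukocyte (12 genes), T cell (6), B cell (3), cytotoxic and NK cell (3), macrophage (8), shared myeloid (4) and granulocyte (2) classes.

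The libraries are named Lum1 to Lum5 after their titles, which are unrelated to any clusters of single cells. The labels give wild type for Lum1, Lum2 and Lum3 and *Brca1* knockout for Lum4 and Lum5, with a mixed strain for all 5. The paper instead treats its bulk luminal cells as BRCA1-deficient and as a single group, so the libraries were described both together and by label. According to the methods, the animals were adult female virgin or mid-pregnant mice of a mixed background, and the knockout came from *MMTV-Cre* acting on floxed *Brca1*, in some strains with a floxed *Trp53* allele or the ROSA mT/mG reporter. Which animal, stage or *Trp53* genotype belongs to which library was not given in the sources used here. The paper describes this knockout as mammary specific, and *MMTV-Cre* need not recombine in every cell. Whether leukocytes of these glands had recombined was not tested. Luminal cells were described as sorted live CD24 high, CD29 low cells after magnetic depletion of hematopoietic and endothelial cells, whereas the extract text of the labels speaks of frozen tumors. Nothing given states whether the 5 libraries came from 5 animals.

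Leukocytes are a regular part of the mammary gland. Macrophages lie along ducts and alveoli and clear apoptotic cells and milk remnants after lactation, T cells sit within and beside the epithelium, and B and plasma cells accumulate with pregnancy and lactation and supply antibody to milk. Each lineage is recognised by genes for its receptors and their signalling partners. CD45, encoded by *Ptprc*, is carried by nearly all nucleated blood cells, CD3 chains mark T cells, CD79 chains mark B cells, and complement C1q chains, CSF1R and CD206 mark tissue macrophages. The labelled tissue is epithelial, and the depletion step was meant to remove cells that carry such genes.

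The deposited values are FPKM, fragments scaled to transcript length and to the mapped fragments of the library, with no read totals. The distance between neighbouring low values gave an estimated depth, in units of 1000000 fragments, of 6.19 (Lum1), 12.9 (Lum2), 30.5 (Lum3), 6.33 (Lum4) and 21.3 (Lum5). The estimate for Lum2 may be up to 2-fold off, because a 2-fold smaller step described its values about as well. Estimated fragment numbers below are therefore approximate. Between 10979 and 11336 genes reached 1 FPKM in each library. The luminal keratin genes *Krt8* and *Krt18* were at 2240 to 3653 FPKM and at 1490 to 2869 FPKM, and the sort antigen genes *Cd24a* and *Itgb1* (which encodes CD29) at 411 to 554 FPKM and at 55.0 to 84.0 FPKM. Lum3 stood apart in hormone-sensing luminal genes, with a median of 5.48 in log2(FPKM + 1) over 6 genes against 1.22 to 1.80 in the other libraries. *Brca1* itself was at 1.30, 1.32 and 0.234 FPKM in Lum1, Lum2 and Lum3 and at 1.20 and 1.34 FPKM in Lum4 and Lum5, so its gene-level value did not separate the labels. A value summed over the whole gene leaves the loss of single exons unseen.

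The promoters shown first belong to members that mark macrophages, B cells and granulocytes, lineages for which Lum2 or Lum3 stood apart. PU.1, the product of *Spi1* and itself a member, is a transcription factor that myeloid and B cells need, and its sites have GAGGAA as their core. GAGGAA was searched on both strands, where the opposite strand reads TTCCTC, and such matches are in capitals. RefSeq promoter windows of GRCm38.p6, from 250 bases before to 50 bases after a start, were at hand for 28 of the 38 members (34 windows). GAGGAA lay in 16 of these 34 windows (47.1%) and in 28.3% of all 32851 promoter windows. By class it lay in 6 of 17 pan-leukocyte, 3 of 4 T cell, 1 of 1 B cell, 0 of 2 cytotoxic and NK, 4 of 6 macrophage, 1 of 2 shared myeloid and 1 of 2 granulocyte windows. A match describes the letters only and shows no binding. The stretches below are the parts of these windows that lie before every annotated start used here, each written 5′ to 3′ on the strand of its gene.
*C1qb*, minus strand, chr4:136886201-136886450: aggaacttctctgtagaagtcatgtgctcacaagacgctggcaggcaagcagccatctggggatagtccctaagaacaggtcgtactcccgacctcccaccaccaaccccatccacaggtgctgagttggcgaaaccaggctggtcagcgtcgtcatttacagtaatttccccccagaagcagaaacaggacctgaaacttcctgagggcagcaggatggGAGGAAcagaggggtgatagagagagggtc
*C1qc*, minus strand, chr4:136893066-136893164: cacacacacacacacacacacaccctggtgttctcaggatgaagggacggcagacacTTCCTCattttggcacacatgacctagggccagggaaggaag
*Cd68*, minus strand, chr11:69666171-69666420: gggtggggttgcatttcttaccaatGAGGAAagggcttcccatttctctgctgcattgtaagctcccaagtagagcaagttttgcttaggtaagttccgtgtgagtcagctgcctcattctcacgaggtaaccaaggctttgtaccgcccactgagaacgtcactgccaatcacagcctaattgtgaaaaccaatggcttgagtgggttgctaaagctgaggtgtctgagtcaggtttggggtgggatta
*Mrc1*, plus strand, chr2:14229164-14229391: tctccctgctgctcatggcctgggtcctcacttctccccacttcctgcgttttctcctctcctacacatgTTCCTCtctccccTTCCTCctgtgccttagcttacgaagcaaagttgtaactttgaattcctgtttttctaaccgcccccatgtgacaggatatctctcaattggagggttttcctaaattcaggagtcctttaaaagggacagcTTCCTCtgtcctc
*Lyz2*, minus strand, chr10:117282322-117282522: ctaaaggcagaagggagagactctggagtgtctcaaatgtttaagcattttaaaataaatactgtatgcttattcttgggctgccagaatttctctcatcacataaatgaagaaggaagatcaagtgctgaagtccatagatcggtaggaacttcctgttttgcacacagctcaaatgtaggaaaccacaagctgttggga
*Cd79a*, plus strand, chr7:24897247-24897380: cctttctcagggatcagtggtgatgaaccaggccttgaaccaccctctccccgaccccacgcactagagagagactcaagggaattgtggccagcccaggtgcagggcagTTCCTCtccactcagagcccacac
*S100a8*, plus strand, chr3:90668821-90668977: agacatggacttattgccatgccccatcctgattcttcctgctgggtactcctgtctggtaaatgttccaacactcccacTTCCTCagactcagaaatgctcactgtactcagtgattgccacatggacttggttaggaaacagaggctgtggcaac
*S100a9*, minus strand, chr3:90695722-90695971: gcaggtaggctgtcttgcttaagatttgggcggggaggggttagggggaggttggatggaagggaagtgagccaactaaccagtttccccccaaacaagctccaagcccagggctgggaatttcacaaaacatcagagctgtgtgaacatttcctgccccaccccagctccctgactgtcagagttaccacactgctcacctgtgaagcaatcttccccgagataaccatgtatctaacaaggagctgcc

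In these stretches *Mrc1* holds 3 matches, *C1qb*, *C1qc*, *Cd68*, *Cd79a* and *S100a8* hold 1 each, and the letters do not occur in those of *Lyz2* and *S100a9*. The palindrome CCCNNGGG, the core bound by the B cell factor EBF1, was also searched and lay in 5 of the 34 windows (14.7%) and in 13.7% of all promoter windows. It was not in the *Cd79a* window. *C1qb*, *C1qc* and *C1qa* are neighbours on chromosome 4 of GRCm38 (136880129 to 136886187, 136889804 to 136893065 and 136895917 to 136898803, minus strand). *S100a8* (90668978 to 90670035) and *S100a9* (90692632 to 90695721) are neighbours on chromosome 3.

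The leukocyte genes were not spread evenly over the libraries. Of the 38 members, 28 reached 1 FPKM in Lum2 and 27 in Lum3, but 9 in Lum1, 12 in Lum5 and 6 in Lum4. Their median in log2(FPKM + 1) was 0.17, 2.76 and 1.87 in Lum1, Lum2 and Lum3 and 0.14 and 0.38 in Lum4 and Lum5, a mean of 1.06 ± 1.19 (SD, n = 5), while the median over all genes stayed between 0.53 and 0.70. Summed over the members, 842 FPKM in Lum2 and 221 FPKM in Lum3 stood above 77.3, 98.7 and 109 FPKM in Lum1, Lum4 and Lum5. Even in Lum2 this sum was 0.150% of all FPKM. In these bulk samples, fewer cells of a type and less RNA per cell cannot be told apart.

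Lum2 held the highest value of 29 members, Lum3 of 7 and Lum5 of 2, whereas over the 19352 genes above 0 in any library Lum2 was highest for 21.1% and Lum3 for 22.9%. In 31 of the 38 members Lum2 and Lum3 took the first 2 ranks, compared with 14.2% of all genes. Over genes averaging 1 FPKM or more, median-of-ratios scaling shifted log2 values by a median of 0.18 in Lum3 and at most -0.08 elsewhere. It left the count of 31 members unchanged and gave Lum2 the highest value of 27 members and Lum3 of 9. Depth differed along with these values. Lum1 and Lum4, the shallowest libraries, listed 13 and 14 members at 0, and Lum5 listed 5, Lum2 listed 1 and Lum3 listed 0. The part of depth in these values was not tested.

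**Figure D1:**
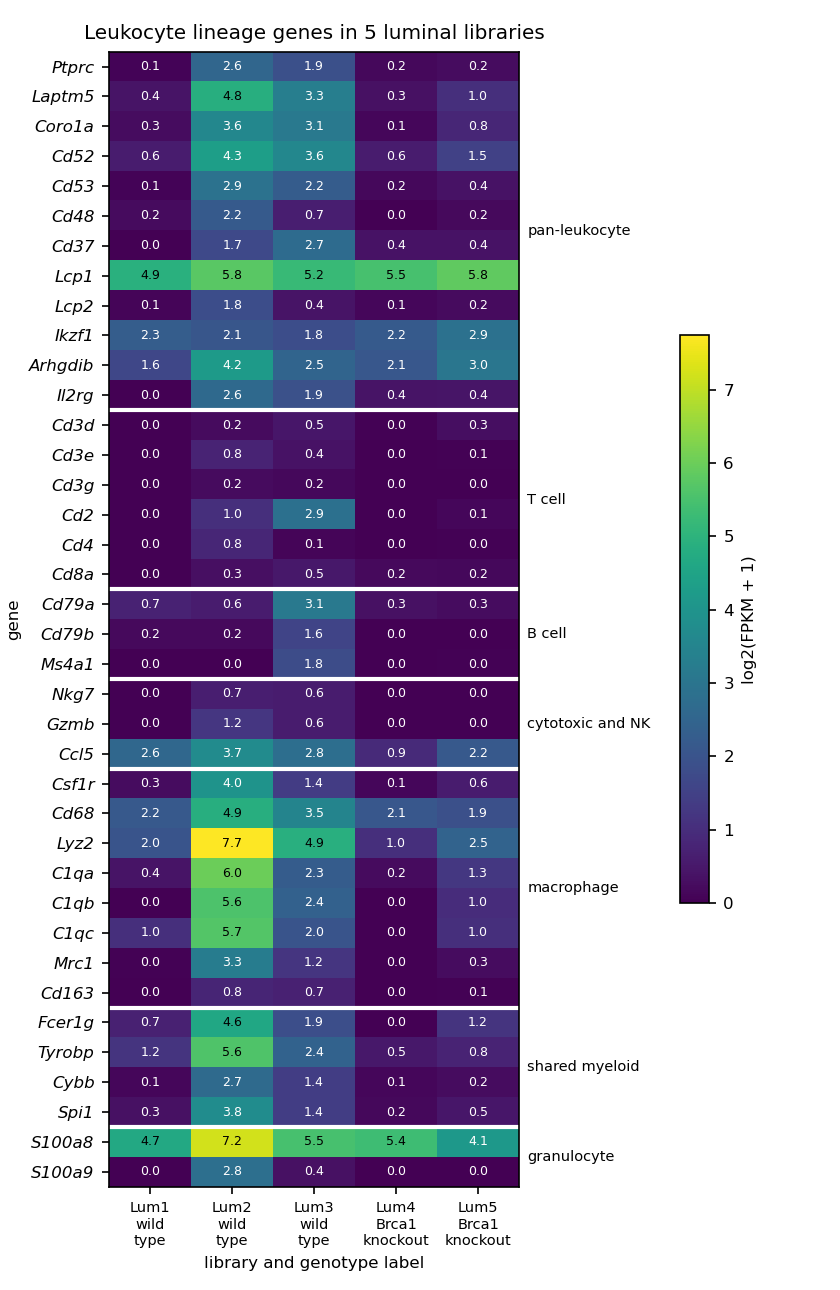
Level of each of the 38 leukocyte genes (rows, grouped by class) in the 5 libraries (columns, with their genotype labels), as log2(FPKM + 1) by colour and printed number. The columns of Lum2 and Lum3 are the brighter ones for most genes, *Lcp1* and *Ikzf1* are similar in all 5, and the B cell rows are bright in Lum3.

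Macrophage genes showed the widest spread. The class median was 0.34, 5.21 and 2.14 in Lum1, Lum2 and Lum3 and 0.08 and 1.01 in Lum4 and Lum5 in log2(FPKM + 1), and all 8 genes were highest in Lum2. Their summed FPKM was 424 in Lum2 and 53.5 in Lum3, a ratio of 7.92, against 4.63 to 11.4 elsewhere. *C1qa*, which with *C1qb* and *C1qc* encodes the chains of the C1q complement protein that tissue macrophages make, was at 0.340, 63.3 and 3.77 FPKM in Lum1, Lum2 and Lum3 and at 0.169 and 1.38 FPKM in Lum4 and Lum5. Values for *C1qb* in the same order were 0, 46.7, 4.25, 0 and 0.961 FPKM. For *C1qc* they were 1.05, 49.5, 3.07, 0 and 1.07 FPKM. All 3 chains thus had the same first and second library, and Lum2 exceeded Lum3 by 16.8-fold (*C1qa*), 11.0-fold (*C1qb*) and 16.1-fold (*C1qc*). The *C1qa* values of Lum1 and Lum4 rest on an estimated 2.18 and 1.11 fragments, so no fold against them is given.

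*Csf1r*, the receptor for the growth factor CSF1 on which tissue macrophages depend, was at 0.204, 14.6, 1.62, 0.0943 and 0.491 FPKM in Lum1 to Lum5. *Mrc1*, the mannose receptor CD206, was at 0.0293, 8.57, 1.31, 0 and 0.198 FPKM. Both had their highest value in Lum2, with Lum2 above Lum3 by 9.01-fold and 6.54-fold. *Lyz2*, lysozyme of macrophages and neutrophils, had the highest value of any member in Lum2 but not in the other libraries, at 3.06, 213 and 28.7 FPKM in Lum1, Lum2 and Lum3 and at 1.04 and 4.53 FPKM in Lum4 and Lum5. Its near-identical neighbour *Lyz1* was at 0.352, 29.0, 8.38, 0.280 and 0.574 FPKM, and reads shared by the pair may have been divided between them. *Cd68*, a lysosomal membrane glycoprotein, was at 3.49, 27.9, 10.2, 3.31 and 2.71 FPKM. It did not fall below 2.71 FPKM in any library, unlike the C1q chains. *Cd163*, the scavenger receptor for hemoglobin and haptoglobin, was low throughout at 0.0178, 0.745, 0.651, 0.0176 and 0.0397 FPKM, and its values in Lum2 and Lum3 were 1.14-fold apart.

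Shared myeloid genes, which encode signalling and effector proteins of macrophages, granulocytes and in part NK cells, had class medians of 0.53, 4.19, 1.63, 0.16 and 0.62 in Lum1 to Lum5 in log2(FPKM + 1). All 4 were highest in Lum2 with Lum3 second. *Tyrobp*, which encodes the adaptor DAP12, was at 1.22, 47.8, 4.43, 0.409 and 0.703 FPKM. *Fcer1g*, the common gamma chain of Fc receptors, was at 0.652, 23.3, 2.64, 0 and 1.22 FPKM. These adaptors stood in a ratio of 0.486 in Lum2 and 0.595 in Lum3 (*Fcer1g* to *Tyrobp*), although Lum2 exceeded Lum3 by 8.81-fold for *Fcer1g* and by 10.8-fold for *Tyrobp*. The ratio was 0.534 in Lum1, 0 in Lum4 and 1.74 in Lum5, where it rests on an estimated 17.8 and 8.92 fragments. *Cybb*, the catalytic subunit of the phagocyte NADPH oxidase, was at 0.0989, 5.39, 1.64, 0.0979 and 0.184 FPKM. *Spi1*, whose product PU.1 was introduced with the promoters, was at 0.264, 12.7, 1.65, 0.131 and 0.386 FPKM, and Lum2 exceeded Lum3 by 7.69-fold.

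Pan-leukocyte genes were closer in Lum2 and Lum3 than the macrophage genes were. Their medians were 0.24, 2.77 and 2.36 in Lum1, Lum2 and Lum3 and 0.36 and 0.64 in Lum4 and Lum5 in log2(FPKM + 1), and their summed FPKM in Lum2 was 1.81 times that in Lum3. *Ptprc* lies on the minus strand of chromosome 1 (138062861 to 138175708). It was at 0.0603, 4.93 and 2.69 FPKM in Lum1, Lum2 and Lum3 and at 0.119 and 0.183 FPKM in Lum4 and Lum5. In Lum1 and Lum4 this is an estimated 2.14 and 4.34 fragments, in Lum2 and Lum3 an estimated 366 and 471. *Ptprc* was thus above 0 in all 5 libraries but above 1 FPKM only in Lum2 and Lum3. Its value in Lum1 was under the 0.0845 FPKM that 3 fragments would give.

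*Laptm5*, a lysosomal membrane protein of blood cells that limits antigen receptor levels, was at 0.341, 27.7, 8.91, 0.271 and 1.06 FPKM in Lum1 to Lum5. *Coro1a*, coronin of the leukocyte actin cortex, was at 0.205, 11.0, 7.80, 0.102 and 0.781 FPKM. *Cd52*, a short GPI-anchored surface glycoprotein, was at 0.491, 19.3, 11.1, 0.495 and 1.83 FPKM. All 3 genes had the same leading order, with Lum2 first, Lum3 second and Lum5 next. The tetraspanin gene *Cd53* was at 0.0576, 6.52, 3.72, 0.114 and 0.304 FPKM. *Il2rg*, the gamma chain shared by several interleukin receptors, was at 0, 5.22, 2.79, 0.329 and 0.359 FPKM. Both had Lum2 above Lum3 by less than 2-fold (1.75-fold and 1.87-fold). *Cd37*, a tetraspanin gene most abundant in B cells, had the opposite order at 0, 2.26, 5.57, 0.297 and 0.298 FPKM, with Lum3 2.46-fold above Lum2. In 9 members (*Coro1a*, *Cd52*, *Cd37*, *Lcp1*, *Lcp2*, *Arhgdib*, *Il2rg*, *Cd3e* and *Csf1r*) an exon shares bases with a neighbouring gene, so some of their fragments may belong to that neighbour. The remaining pan-leukocyte genes below a mean of 1 FPKM, *Cd48* and *Lcp2*, were highest in Lum2 at 3.55 and 2.54 FPKM and at most 0.583 FPKM elsewhere.

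Some genes of this class were present in every library. *Lcp1*, the actin-bundling protein L-plastin, was at 29.1, 53.5 and 36.1 FPKM in Lum1, Lum2 and Lum3 and at 43.6 and 56.2 FPKM in Lum4 and Lum5, a mean of 5.44 ± 0.39 in log2(FPKM + 1) (SD, n = 5). *Ikzf1*, which encodes the lymphoid transcription factor Ikaros, was at 3.87, 3.18, 2.56, 3.58 and 6.40 FPKM, a mean of 2.25 ± 0.39 on the same scale. For both genes the highest library was Lum5, and *Ikzf1* was lowest in Lum3, so neither followed *Ptprc*. *Arhgdib*, a cytoskeletal regulator of blood cells, was at 2.12, 17.6, 4.61, 3.32 and 7.22 FPKM, with Lum2 first and Lum5 second. In all, 6 members (*Lcp1*, *Ikzf1*, *Arhgdib*, *Cd68*, *Lyz2* and *S100a8*) reached 1 FPKM in all 5 libraries, 15.8% of the 38 against 40.6% of all genes. Whether luminal cells themselves carry these transcripts was not tested.

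T cell genes were low in every library. Their class median was 0.54 in Lum2 and 0.41 in Lum3 and at most 0.09 elsewhere in log2(FPKM + 1), and all 6 were listed at 0 in Lum1. The chains of the CD3 complex that carries the T cell receptor signal lie together on chromosome 9. *Cd3d* was at 0, 0.177, 0.370, 0.0220 and 0.209 FPKM, *Cd3e* at 0, 0.694, 0.297, 0 and 0.0354 FPKM, and *Cd3g* at 0, 0.172, 0.111, 0 and 0 FPKM in Lum1 to Lum5. None of these chains reached 1 FPKM in any library, and the order of Lum2 and Lum3 differed between them. The coreceptor gene *Cd4* was at 0, 0.774, 0.0849, 0 and 0.0304 FPKM, and *Cd8a* at 0, 0.246, 0.408, 0.154 and 0.121 FPKM. *Cd4* thus stood out in Lum2 while *Cd8a* did not. *Cd2*, an adhesion receptor of T and NK cells that mouse B cells carry as well, was at 0, 1.05, 6.31, 0 and 0.0925 FPKM, and was 5.98-fold higher in Lum3 than in Lum2. It was the 1 member of the class to reach 1 FPKM.

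Cytotoxic genes were likewise sparse, with the exception of a chemokine. *Nkg7*, a granule membrane protein of NK and cytotoxic T cells, was at 0, 0.574, 0.495, 0 and 0 FPKM in Lum1 to Lum5. *Gzmb*, the protease granzyme B, was at 0, 1.35, 0.503, 0 and 0 FPKM. Neither was detected in Lum1, Lum4 or Lum5, and 3 fragments of *Gzmb* would be 0.338 FPKM in Lum1 and 0.0983 FPKM in Lum5, so a level under these could have been missed. *Ccl5*, a chemokine of T, NK and other cells, was at 4.95, 12.4, 5.89, 0.906 and 3.49 FPKM. It was above 3 FPKM in 4 of the 5 libraries and was lowest in Lum4.

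B cell genes were a feature of Lum3. The class median was 1.80 there and between 0.00 and 0.20 in the other libraries in log2(FPKM + 1), and the summed FPKM in Lum3 was 18.8 times that in Lum2. *Cd79a* (chromosome 7, 24897381 to 24902197, plus strand), a signalling chain of the B cell receptor, was at 0.665, 0.507 and 7.71 FPKM in Lum1, Lum2 and Lum3 and at 0.264 and 0.194 FPKM in Lum4 and Lum5. Its partner *Cd79b* was at 0.150, 0.143 and 2.02 FPKM and at 0 in Lum4 and Lum5. *Ms4a1*, which encodes CD20, was at 0, 0, 2.48, 0 and 0.0236 FPKM. All 3 genes were highest in Lum3, and 8 of 8 other B and plasma cell genes measured were highest there too, among them *Pax5* (1.67 FPKM in Lum3 and 0 elsewhere). *Jchain*, the joining chain of secreted IgA and IgM, was at 0.473, 14.1, 117, 1.33 and 0.452 FPKM. Lum3 was also the library with the higher hormone-sensing luminal genes. Whether these are linked was not tested.

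Both granulocyte genes were highest in Lum2 and second in Lum3, but their levels were far apart. *S100a8* and *S100a9* encode the chains of calprotectin, a protein that neutrophils hold as pairs of unlike chains. *S100a8* was at 24.6, 147, 43.9, 39.8 and 16.4 FPKM in Lum1 to Lum5, so it was well above most members in every library. *S100a9* was at 0, 6.14, 0.280, 0 and 0 FPKM. The ratio of *S100a9* to *S100a8* was 0.0418 in Lum2, 0.00638 in Lum3 and 0 in the other libraries, while the estimated *S100a8* fragments there were 75.8, 125 and 174 in Lum1, Lum4 and Lum5. For *S100a9*, 3 fragments would be 0.934 FPKM in Lum1 and 0.272 FPKM in Lum5, which is the limit of what these zeros show. Of other neutrophil genes, *Csf3r*, the receptor for granulocyte colony-stimulating factor, was at 0.170, 1.20, 0.635, 0.278 and 0.506 FPKM. *Retnlg*, *Camp* and *Ngp* did not exceed 0.296 FPKM, *Mpo* did not exceed 0.0634 FPKM, and *Elane* was listed at 0 in all 5 libraries.

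**Figure D2:**
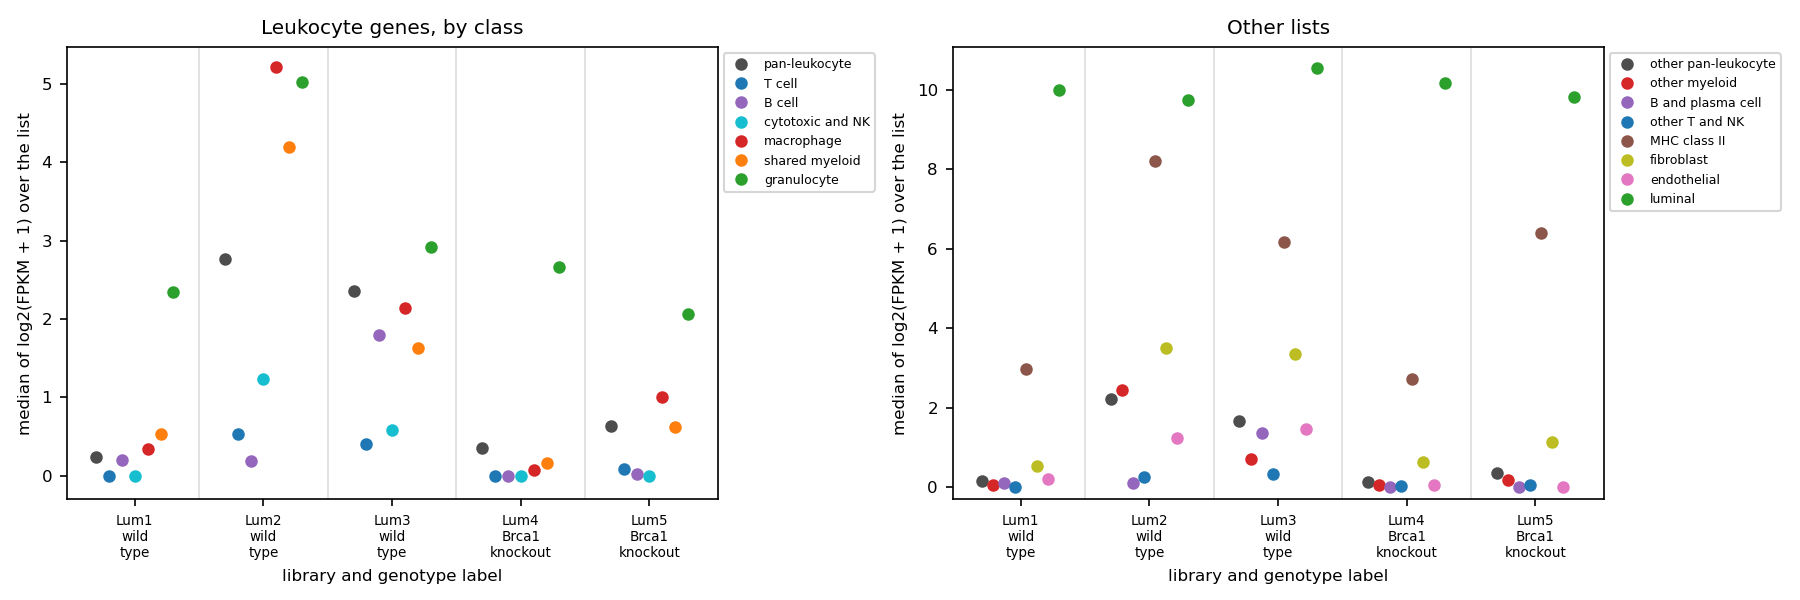
Median of log2(FPKM + 1) over each class of the 38 genes (left) and over other gene lists (right) in the 5 libraries, with 1 point per list and library. On the left the macrophage median reaches 5.21 in Lum2 and the B cell median 1.80 in Lum3, and on the right the luminal median stays between 9.75 and 10.55 while MHC class II is high in Lum2, Lum3 and Lum5.

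Lum2 and Lum3 therefore differed in which leukocyte genes they held, and ratios within a library, which do not depend on its scaling, showed this as well. *C1qa* was 12.8 times *Ptprc* in Lum2 and 1.40 times in Lum3. *Cd79a* was 0.103 times *Ptprc* in Lum2 and 2.86 times in Lum3. In Lum1, Lum4 and Lum5 the ratio was 11.0, 2.21 and 1.06 for *Cd79a* and 5.63, 1.42 and 7.56 for *C1qa*. There *Ptprc* rests on an estimated 2.14, 4.34 and 22.4 fragments, so neither ratio sets Lum2 and Lum3 apart from these libraries. T cell genes went either way relative to *Ptprc*. In Lum2 and Lum3, *Cd3e* was 0.141 and 0.110 times *Ptprc*, *Cd3d* 0.0359 and 0.137 times, *Cd2* 0.214 and 2.34 times and *Cd4* 0.157 and 0.0315 times. In contrast, *C1qa* and *C1qc*, chains of a shared complex, kept a similar ratio where they were well counted. *C1qa* to *C1qc* was 1.28 in Lum2, 1.23 in Lum3 and 1.29 in Lum5, and 0.323 in Lum1, where it rests on an estimated 2.18 and 7.83 fragments. *Cd79b* to *Cd79a* was 0.282 in Lum2 and 0.262 in Lum3, although *Cd79b* in Lum2 rests on an estimated 2.64 fragments. The CD3 chains kept no similar ratio, as *Cd3e* to *Cd3d* was 3.92 in Lum2, where *Cd3d* rests on an estimated 3.70 fragments, and 0.802 in Lum3. The ratio of *C1qb* to *C1qc* was less even than that of *C1qa*, at 0.943, 1.38 and 0.896 in Lum2, Lum3 and Lum5. As each library is a single sample, these comparisons between libraries have no replicate check.

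**Figure D3:**
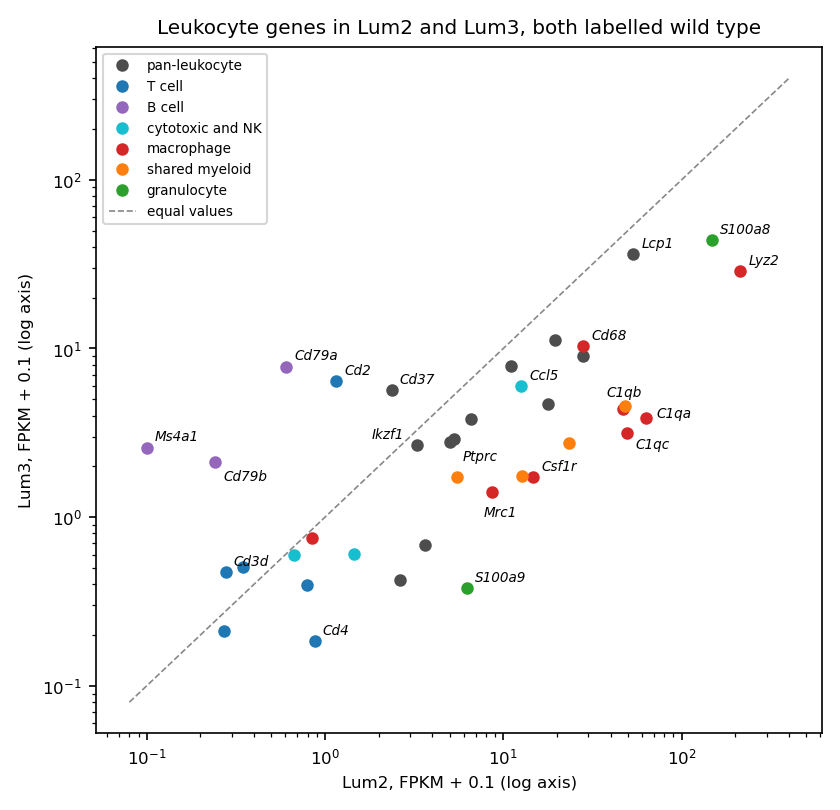
FPKM of each member in Lum2 (x axis) and Lum3 (y axis), both log scales with 0.1 FPKM added, coloured by class, with a line of equality. Macrophage and shared myeloid genes lie to the Lum2 side, where *Lyz2* has 213 against 28.7 FPKM, and *Cd79a*, *Cd79b*, *Ms4a1*, *Cd2* and *Cd37* lie to the Lum3 side.

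Genes of the same lineages that are not members behaved alike in most cases. Their lists were also chosen with earlier results of these data known, so they are no independent check. Of 12 other pan-leukocyte genes 10 were highest in Lum2, of 15 other myeloid genes 13 were, and of 14 other T and NK cell genes measured 8 were highest in Lum2 and 6 in Lum3. Markers of other cells that a luminal sort could hold also moved with the leukocyte genes. The fibroblast median over 7 genes was 0.53, 3.50, 3.35, 0.64 and 1.15 in Lum1 to Lum5, and the endothelial median over 5 genes was 0.21, 1.24, 1.46, 0.06 and 0.02 in log2(FPKM + 1). In 7 of 7 fibroblast and 5 of 5 endothelial genes Lum2 and Lum3 took the first 2 ranks, as in 31 of the 38 members. The basal median over 6 genes had another order, at 2.12, 2.57, 1.20, 1.41 and 1.11. The luminal median over 6 genes lay between 9.75 and 10.55. The part of stromal and endothelial cells in these values was not tested.

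The labels also allow the libraries to be compared by genotype, that is, *Brca1* knockout (Lum4 and Lum5) with wild type (Lum1, Lum2 and Lum3). On average 36 of the 38 members were lower under the knockout label, as were 46.7% of all genes, and the exceptions were *Lcp1* and *Ikzf1*. None of these differences passed the test. limma was fitted to the 11481 genes that averaged 1 FPKM or more, which held 26 of the members, and called 0 members and 0% of genes at a Benjamini-Hochberg adjusted p under 0.05. At an unadjusted p under 0.05, limma gave 1 member, *Ccl5*, and 3.24% of genes. The adjusted p of the 26 members lay between 0.924 and 0.979.

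The libraries of the wild type label were far apart in many members. *Ptprc* was at 1.51 ± 1.28 (SD, n = 3) under the wild type label and at 0.20 ± 0.06 (SD, n = 2) under the knockout label in log2(FPKM + 1), a log2 fold change of -1.31 with a standard error of 0.76 and an adjusted p of 0.924 from limma. *Lyz2* had the lowest log2 fold change of the 26, -3.13 with a standard error of 1.65 (adjusted p = 0.924, limma). For *Ccl5* it was -1.49 with a standard error of 0.52 (unadjusted p = 0.0324 and adjusted p = 0.924, limma). *Lcp1* and *Ikzf1* had log2 fold changes of 0.36 and 0.48 with standard errors of 0.30 and 0.29 (adjusted p = 0.924 for both, limma).

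The libraries of the labels did not overlap in 4 of the 26 members (*Cd79a*, *Ccl5*, *Cd68* and *Tyrobp*), against 23.3% of all genes tested. Set against Lum1 alone, the mean of Lum4 and Lum5 was lower in 10 of the 38 members and in 41.1% of all genes, compared with 36 members when Lum2 and Lum3 were included. Lum1 listed 13 of the 38 members at 0, so a lower mean was not possible for these. Where the knockout mean was lower than the wild type mean but not lower than Lum1, the difference came from Lum2 and Lum3. Without Lum1, limma gave 15 of the 26 members and 7.56% of all genes at an unadjusted p under 0.05. It gave 0 members without Lum2 (1.99% of all genes) and 0 without Lum4 (1.30%), with 0 members past the adjusted threshold each time. Many of the 26, such as *C1qb*, passed the filter on low values through Lum2 and Lum3, so their share is not read against that of all genes. With 3 libraries against 2, an exact permutation test of a single value cannot give a two-sided p below 0.2, where that p is double the smaller one-sided p. Within the knockout label, Lum5 exceeded Lum4 in 29 of the 38 members, against 47.8% of all genes, and Lum5 was also the deeper library.

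**Figure D4:**
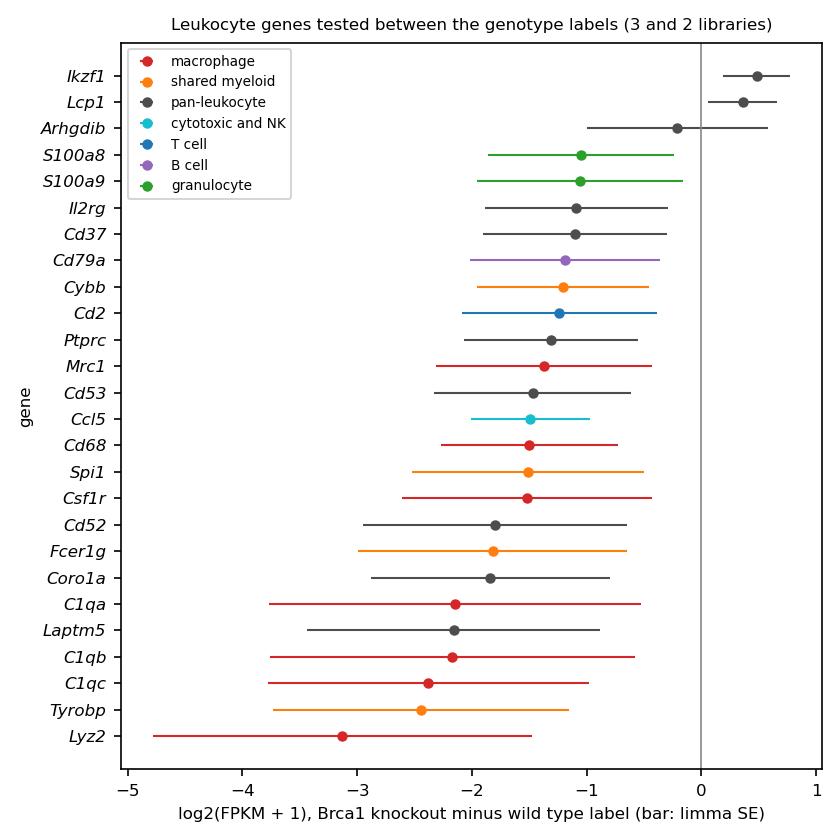
Difference of mean log2(FPKM + 1) between the *Brca1* knockout label (2 libraries) and the wild type label (3 libraries) on the x axis for the 26 genes tested (y axis), with bars of 1 limma standard error and colours by class. *Lyz2* is lowest at -3.13, *Lcp1* and *Ikzf1* lie above 0 at 0.36 and 0.48, and none passed the adjusted threshold.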

How the data were processed

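RNA-seq was available for 5 libraries of mouse mammary luminal cells, 3 labelled wild type and 2 labelled *Brca1* knockout. Reads were aligned to mm10, and the submitters' processing notes name Trimmomatic 0.35, TopHat2 2.0.13 and Cufflinks 2.2.1. The paper names another version of TopHat and no trimming step for its bulk libraries. The deposited values are FPKM from Cufflinks, normalized for transcript length and mapped fragments. The gene annotation was not given in the sources used here. Of 24346 rows, 27 whose gene name had become a date were left out.

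The genes and lists were chosen with earlier results of these data known. All 38 genes are accounted for. Named singly were those that averaged 1 FPKM or more and the defining markers of each class, and other genes came from the lists. Levels were read as FPKM and log2(FPKM + 1), where changes of low genes come out too small. Classes and lists were summarised by their median. Depth was estimated from the step between low FPKM values of 873 genes with a single transcript longer than 3000 bases. Between 53.7% and 58.3% of values lay within 0.15 of a whole multiple (30.0% if uniform), so no counts were recovered and no count model was run. Fragment numbers give counting error only.

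The labels were compared with limma 3.58.1 in R 4.3.3 (lmFit and eBayes with a trend, all 5 libraries, no covariate) over genes that averaged 1 FPKM or more, with Benjamini-Hochberg adjustment and a threshold of 0.05. The fit was tested on simulated data whose spread between libraries was smaller than that of many members, so that test does not cover them. Nothing says that the libraries came from separate animals, so p-values measure the spread between these libraries. Alternatives were a pseudocount of 0.1, other filters, median-of-ratios and quantile scaling, limma without a trend and each library left out. A comparison with Lum1 as the only wild type library was added after seeing the data. Gene positions are those of GENCODE on GRCm38, which is mm10, and promoters those of RefSeq on GRCm38.p6. *Ly6g*, *Trbc2*, *Hbb-bt*, *Ighm* and *Igkc* were on the lists but were not found by name among the usable genes, so they were not analysed here. Python 3.11.15 was used with pandas 2.3.3, numpy 2.4.6 and scipy 1.17.1.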

Additional observations from a re-analysis of the deposited data

Results flagged for a closer look

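With the 5 libraries taken as 1 group, 46 levels were examined for a single library far from the rest (the gap to the nearest library divided by the whole range, with a limit of 0.71), and 7 passed. Chance alone flags about 1 in 20 such groups, and the genes of a class share libraries, so the 7 are not independent. In Lum3 the ratio was 0.981 for *Ms4a1*, 0.873 for *Cd79b*, 0.833 for *Cd79a* and 0.888 for the median of the B cell class. In Lum2 it was 0.875 for *S100a9*, 0.858 for *Cd4* and 0.824 for *Lcp2*, a gene named here after its values were seen. The level of *Ms4a1* in Lum3 was 1.80 and the nearest other library 0.03 in log2(FPKM + 1). For *S100a9* in Lum2 these levels were 2.84 and 0.36, and for *Cd4* in Lum2 they were 0.83 and 0.12. Macrophage genes were not among the 7, since Lum3 lay between Lum2 and the rest.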

How the results depend on the processing

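No member was called between the labels under any alternative that was run. Genes called numbered 0 as reported and 2 without a filter on low values, and 0 to 18 when 1 library was left out (2 without Lum1, 18 without Lum4 and 4 without Lum5). Without Lum4 or Lum5 the lone knockout library is assumed to vary like the wild type ones. Members at an unadjusted p under 0.05 numbered 0 without the filter. A pseudocount of 0.1 in place of 1 moved the median level of the members from 1.06 to -0.36 and widened its range over the libraries from 2.62 to 4.87, as a smaller pseudocount spreads low values. It widened the range of the class medians to 4.40 (pan-leukocyte), 2.39 (T cell), 4.69 (B cell), 3.86 (cytotoxic and NK), 7.90 (macrophage), 6.33 (shared myeloid) and 4.56 (granulocyte). With 1 library left out, the median level was 0.64 to 1.29 and its range 1.74 to 2.62. The ranges of the classes were then 2.12 to 2.53 (pan-leukocyte), 0.41 to 0.54 (T cell), 0.20 to 1.80 (B cell, the lowest without Lum3), and, the lowest without Lum2, 0.59 to 1.23 (cytotoxic and NK), 2.06 to 5.14 (macrophage), 1.48 to 4.03 (shared myeloid) and 0.86 to 2.96 (granulocyte). The log2 fold changes of *Ptprc*, *Lyz2*, *Ccl5*, *Lcp1* and *Ikzf1* kept their sign under every alternative run. The members lower on average under the knockout label fell in number from 36 to 10 with Lum1 as the only wild type library. However, 13 members were listed at 0 in Lum1 and could not count as lower there. No paired analysis was possible because the labels share no replicate number. Depth limits low members most in Lum1 and Lum4, where 3 fragments of *C1qb* would be 0.446 FPKM in Lum1, and the depth of Lum2 is uncertain by up to 2-fold.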

Other observations

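MHC class II genes, which encode the proteins that present peptides to CD4 T cells, did not follow the macrophage members in Lum5. *Cd74*, the invariant chain, was at 22.7, 696, 205, 25.9 and 465 FPKM in Lum1 to Lum5, and *H2-Aa* at 6.89, 490, 95.3, 5.66 and 82.9 FPKM. *H2-Aa* still had Lum3 above Lum5, as the C1q chains did. In Lum5, where *C1qa* was at 1.38 FPKM, *Cd74* was 2539 times *Ptprc*, against 141 times in Lum2 and 76.1 times in Lum3. It was 376 times in Lum1 and 217 times in Lum4. *Ptprc* rests on an estimated 2.14, 4.34 and 22.4 fragments in Lum1, Lum4 and Lum5. *Ciita*, the transcriptional activator of this group, was highest in Lum5 at 2.12 FPKM and at most 0.977 FPKM elsewhere. These genes were picked from the class II list after their values were seen.

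Mast cell genes were found in Lum2. *Mcpt4*, a mast cell protease, was at 10.1 FPKM in Lum2 and at most 0.270 FPKM elsewhere, and *Cpa3*, a mast cell carboxypeptidase, was at 3.74 FPKM and at most 0.171 FPKM. *Cd14*, a coreceptor for lipopolysaccharide listed with the myeloid genes, was at 149, 350, 387, 168 and 79.6 FPKM in Lum1 to Lum5, and *Cytip*, listed with the pan-leukocyte genes, at 23.1, 17.9, 13.5, 21.9 and 13.9 FPKM. Both were abundant in libraries in which *Ptprc* was under 0.2 FPKM.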
